A study of Mus musculus with 12 samples.

Results

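The transcript content of exosomes from HL-1 cardiomyocytes was compared between cells given either growth factor and cells given none. The 8 arrays of growth factor exosomes (4 from TGF-β2 and 4 from PDGF-BB cultures) were set against 4 arrays of control exosomes, and these were all 12 samples of the series. HL-1 is a single immortalised mouse atrial cell line that keeps features of adult cardiomyocytes in culture. Cells were held for 23 h with TGF-β2 at 10 ng/mL, with PDGF-BB at 100 ng/mL or with no growth factor. The growth factors were dissolved in serum-free medium, and each sample was the exosome RNA from 1 culture flask. All cultures were of 1 cell line, so the groups describe that line and not cardiac tissue. Groups were taken from the sample titles.

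Exosomes are small vesicles that form inside endosomes and are released when these fuse with the plasma membrane, carrying protein and RNA of the parent cell. TGF-β2 binds the type I and type II TGF-β receptor kinases, which phosphorylate SMAD transcription factors, and in the heart it is known for fibrosis and hypertrophic growth. PDGF-BB binds the PDGF receptor tyrosine kinases, which act through Ras, MAP kinases and PI3 kinase. The question put by pooling both factors was which transcripts differed from control exosomes on average over the 2 treatments.

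The signal was close to background on all arrays. Between 1.14% and 5.86% of the 25696 probes were detected on an array, that is, had a signal that under 1% of the negative control beads reached (detection p under 0.01). At this threshold about 257 probes per array are called by chance. A probe was tested when it was detected on at least 3 of the 12 arrays, which left 1099 probes for 962 named genes, 5.8% of the named genes on the array. A probe could pass this filter through arrays of 1 group only. Two-sided limma tests on log2 intensity used the mean of the TGF-β2 and PDGF-BB group means minus the control mean, with the chip as a block. The arrays lay on 2 chips, and every group had 2 of its arrays on each. Chip 1 held TGF-β2 samples 1 and 4, PDGF-BB samples 1 and 4 and control samples 2 and 3, and chip 2 held the others. Position on the chip went with the group on both chips, so position and group cannot be told apart. PDGF-BB sample 1 had a median correlation of 0.23 with the other arrays and control sample 1 one of 0.52, against 0.65 or more for the other 10 arrays. The study set aside 1 PDGF-BB sample as an outlier without saying which in the sources used here, and all 12 arrays were kept.

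The number of detectable transcripts did not separate growth factor from control exosomes. In samples 1 to 4 of a group, the order kept for all values listed per group, the number of detected probes was 564, 989, 1506 and 518 with TGF-β2 and 421, 322, 1070 and 294 with PDGF-BB, against 463, 820, 1152 and 527 in control exosomes. The growth factor arrays averaged 710.5 ± 432 detected probes (SD, n = 8; lowest 294, median 541, highest 1506) and the control arrays 740.5 ± 315 (SD, n = 4). The ranges overlapped throughout, and the difference of -30.0 probes was smaller than the spread (two-sided exact permutation within chips, p = 0.907, smallest possible p 0.00444). For the spread between arrays, the number of vesicles in a flask, the RNA per vesicle and labelling or hybridisation cannot be told apart from these values.

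The difference in detected probes had opposite signs on the 2 chips, between samples of different numbers. On chip 1 the growth factor arrays averaged 449.25 detected probes and the control arrays 986.0, a difference of -536.75 (exact permutation, p = 0.0667, the smallest that 15 assignments allow). On chip 2 they averaged 971.75 and 495.0, a difference of 476.75 (exact permutation, p = 0.333). The change between chips was 1013.5 probes (exact permutation within chips, p = 0.0267), a test chosen after the values were seen. On chip 1 growth factor samples 1 and 4 met control samples 2 and 3, and on chip 2 growth factor samples 2 and 3 met control samples 1 and 4. Sample 3 had the most detected probes in each of the 3 groups, and samples 1 and 4 had fewer than sample 3 in each. A difference between chips and a difference between sample numbers can therefore not be told apart here, in this test or in the values given per chip below. Set against the control of the same number, from the counts above, TGF-β2 arrays had more detected probes in 3 of 4 cases and PDGF-BB arrays fewer in 4 of 4. The labels do not say that a number marks a shared batch, and both treatments share the controls, so these are values without a test.

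**Figure D1:**
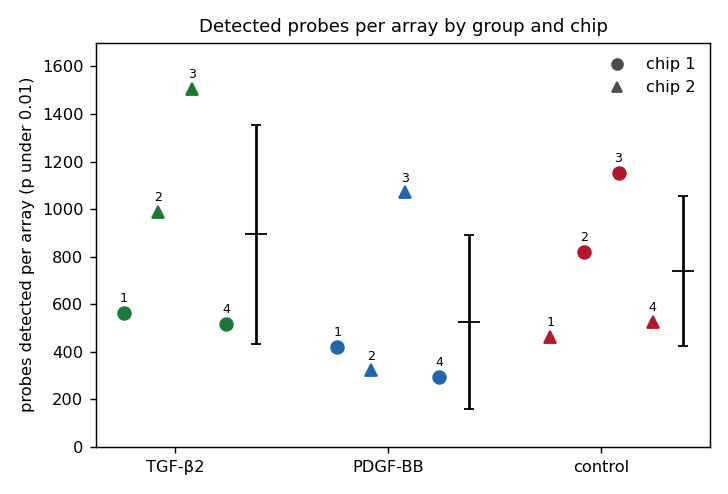
Number of probes detected (detection p under 0.01) on each of the 12 arrays, by group; points are arrays labelled with the sample number, circles chip 1 and triangles chip 2, and the bar beside each group is the mean ± SD (n = 4). Growth factor arrays of chip 1 lie between 294 and 564, below both control arrays of that chip (820 and 1152), while on chip 2 the growth factor arrays lie at 322, 989, 1070 and 1506 and the control arrays at 463 and 527.

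No transcript differed between growth factor and control exosomes after adjustment over all 1099 probes (0%, limma with Benjamini-Hochberg adjustment, smallest adjusted p = 0.116). At an unadjusted p under 0.05, 7 probes were higher with growth factor (0.637% of those tested) and 22 lower (2%), 29 in all, where 54.95 would be met by chance. These numbers rested on single arrays: without control sample 1 they were 10 higher and 82 lower, and without control sample 2 they were 1 and 14. Without control sample 1, 2 probes passed adjustment (G3bp1 and Adarb1, both lower), and without control sample 4, 1 probe did (Appbp2, lower). No other array changed the count past adjustment when left out. Over all probes the median log2 difference was 0.01 (quartiles -0.18 and 0.17), with 566 above 0 and 533 below, and the median standard error was 0.28. A difference over 1 on the log2 scale was seen for 13 probes, of which 1 was higher and 12 lower. The genes below are thus described by their values, as the 10 in each direction whose unadjusted p was smallest, and none of them is called changed.

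Appbp2 had the smallest p. It encodes a substrate receptor of a cullin ubiquitin ligase that also binds the tail of the amyloid precursor protein. Its log2 intensity was 4.79, 5.36, 5.77 and 4.85 with TGF-β2 and 4.65, 5.12, 5.07 and 4.89 with PDGF-BB, against 6.52, 6.11, 6.03 and 5.88 in control exosomes. All 8 growth factor arrays lay below all 4 control arrays. It was the only probe of which this held (0.091% of those tested), and for 0 probes (0%) did all 8 lie above. The difference was -1.07 ± 0.18 (SE; 95% interval -1.46 to -0.68), or 2.10-fold lower. Its p was 1.05e-04 before and 0.116 after adjustment (limma). Chip 1 gave -1.27 and chip 2 gave -0.87. TGF-β2 alone gave -0.94 and PDGF-BB alone -1.20, from the same controls. The probe was detected on 2 TGF-β2 arrays, 1 PDGF-BB array and all 4 control arrays.

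The order of the Appbp2 values depended on the scaling between arrays. The deposited intensity was 26.7, 66.2, 202 and 37.6 with TGF-β2 and 2.10, 50.4, 60.6 and 44.1 with PDGF-BB, against 64.3, 167, 169 and 85.9 in control exosomes. Here TGF-β2 sample 3, the array with most detected probes, held the highest value of all and the groups overlapped. All 8 growth factor arrays stayed below the controls in the spline-normalized table, 7 did so after median scaling and 6 with no scaling between arrays, where the differences were -0.43, -0.36 and -0.71 and the limma adjusted p was 0.801, 0.999 and 0.999. Without control sample 4 the difference was -1.24 with an adjusted p of 0.0368, and without control sample 3 the adjusted p was 0.696 (limma).

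Reep1, which encodes a protein that shapes the tubular endoplasmic reticulum, came next. Its log2 intensity was 5.12, 5.14, 5.45 and 4.84 with TGF-β2 and 4.93, 5.06, 4.95 and 4.64 with PDGF-BB, against 6.01, 5.18, 5.87 and 5.75 in control exosomes. In 7 of 8 growth factor arrays it was below every control, TGF-β2 sample 3 being the exception. The difference was -0.69 ± 0.17 (SE, limma adjusted p = 0.992) and alike on the chips, at -0.65 and -0.73. It was detected on 2 TGF-β2 arrays, 0 PDGF-BB arrays and 4 control arrays.

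E2f1, a transcription factor that turns on genes of DNA synthesis, was also among the 10 lower genes. It had log2 intensities of 6.83, 6.74, 6.38 and 5.70 with TGF-β2 and 4.81, 5.67, 5.91 and 4.95 with PDGF-BB, against 6.89, 7.10, 5.96 and 7.12 in control exosomes. All 4 PDGF-BB arrays were below all controls, while TGF-β2 arrays overlapped with them. The pooled difference was -0.90 ± 0.27 (SE, limma adjusted p = 0.9996), at -0.96 on chip 1 and -0.83 on chip 2. TGF-β2 minus PDGF-BB was 1.08 ± 0.31 (unadjusted p = 0.00554, adjusted p = 0.764, limma). The related E2f2 had 2 tested probes, with pooled differences of -0.70 ± 0.29 and -0.57 ± 0.42, and its second probe was at -1.80 on chip 1 and 0.65 on chip 2.

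Pik3r1 encodes the regulatory subunit of PI3 kinase, which binds activated growth factor receptors. Its first probe read 6.46, 5.85, 7.47 and 5.12 with TGF-β2 and 4.77, 4.90, 5.84 and 5.16 with PDGF-BB, against 5.73, 7.72, 7.95 and 7.24 in control exosomes. The groups overlapped, with TGF-β2 sample 3 above control samples 1 and 4, and 4 growth factor arrays above control sample 1. The differences of its 2 probes were -1.47 ± 0.50 and -1.28 ± 0.55 (SE), made up of -2.46 and -2.40 on chip 1 and -0.47 and -0.17 on chip 2. Both probes report on 1 gene from the same arrays and are not independent.

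Nras, a Ras GTPase downstream of receptor tyrosine kinases, was 8.70, 8.37, 8.62 and 8.28 with TGF-β2 and 5.08, 6.98, 7.11 and 8.02 with PDGF-BB, against 9.31, 8.74, 8.65 and 8.19 in control exosomes. Its pooled difference of -1.08 ± 0.45 (SE, limma unadjusted p = 0.0371) combined -0.23 for TGF-β2 with -1.92 for PDGF-BB. Without PDGF-BB sample 1, the lowest array at 5.08, the pooled difference was -0.77. The PDGF-BB arrays lay below all controls and the TGF-β2 arrays among them, so that the pooled value stood for neither group. TGF-β2 minus PDGF-BB was 1.69 ± 0.52 (adjusted p = 0.764, limma).

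Rcan3 and Chtop showed differences that a further probe of the gene did not share. Rcan3 belongs to the regulators of calcineurin, a phosphatase of hypertrophic signalling. Its named probe averaged 6.0 ± 0.69 with growth factor (n = 8) and 7.19 ± 0.55 in control (SD, n = 4), a difference of -1.19 ± 0.37 (SE), while the other tested probe differed by -0.16 ± 0.65. Chtop, an mRNA export adaptor, averaged 6.88 ± 0.93 with growth factor and 7.92 ± 0.49 in control, a difference of -1.04 ± 0.34, against -0.11 ± 0.62 for its other probe. In both genes 6 of 8 growth factor arrays lay below all controls.

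The remaining genes of the 10 lower ones were Nceh1 (a neutral cholesterol ester hydrolase), Rnf14 (a RING ubiquitin ligase), Phactr4 (an actin and phosphatase 1 regulator) and Adarb1 (an enzyme that edits adenosine in RNA). Their pooled differences were -0.64 ± 0.21, -0.54 ± 0.20, -0.66 ± 0.24 and -0.90 ± 0.34 (SE). Their growth factor and control arrays overlapped in each case. For Adarb1 control sample 1, at 4.59, was below all 8 growth factor arrays, which ran from 4.72 to 5.63, and the other controls lay between 6.21 and 6.61. Leaving out control sample 1 gave Adarb1 a difference of -1.37 with an adjusted p of 0.0469 (limma). All 10 lower genes were below control on both chips, between -2.46 and -0.35 on chip 1 and between -0.99 and -0.27 on chip 2, though these are the arrays from which they were picked. The size of the differences depended on the scaling. After median scaling, with a constant of 162 added before the log2, Reep1 was at -0.25, E2f1 at -0.27, Rcan3 at -0.37 and Chtop at -0.37. With no scaling between arrays Nceh1 was at -0.04.

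**Figure D2:**
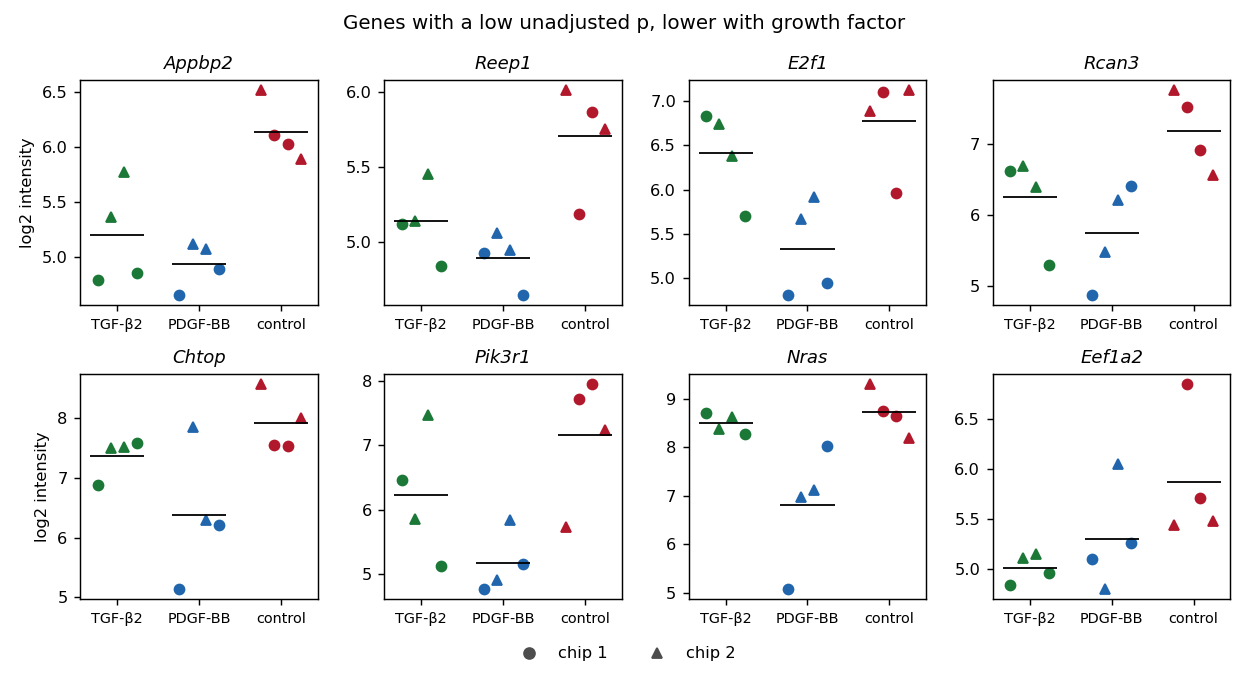
Log2 intensity of 8 genes with an unadjusted p under 0.05 that were lower with growth factor, on each array; each panel has its own axis, circles are chip 1, triangles are chip 2, and the line is the group mean (n = 4). For Appbp2 all growth factor points (highest 5.77) lie below all control points (lowest 5.88); in the other panels at least 1 point overlaps, and E2f1 and Nras are low in the PDGF-BB group rather than in both.

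Most of the 10 genes with the smallest p in the higher direction differed from control more on chip 1 than on chip 2. Of the 10, 9 were above control on both chips, with differences between 0.25 and 2.57 on chip 1 and between -0.12 and 0.51 on chip 2. Tdrd3, a reader of methylated arginine, was 5.93, 4.96, 4.82 and 6.33 with TGF-β2 and 6.75, 4.83, 4.85 and 6.77 with PDGF-BB, against 4.71, 5.14, 5.19 and 4.81 in control exosomes. The 4 high values were the 4 growth factor arrays of chip 1. The other 4 lay among the controls, below the chip 1 controls (samples 2 and 3, at 5.14 and 5.19). Tdrd3 was detected on 4 growth factor and 2 control arrays, all of them on chip 1. The difference was 0.69 ± 0.24 (SE, limma adjusted p = 0.9996), from 1.28 on chip 1 and 0.10 on chip 2. Between the chips this difference changed by -1.18 ± 0.24 (unadjusted p = 0.00127, adjusted p = 0.139, limma).

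The same arrays were high for Map3k12, a kinase upstream of JNK, for Il15, a cytokine of lymphocytes, and for the olfactory receptor Olfr60. Map3k12 read 6.49 and 6.01 in TGF-β2 samples 1 and 4 and 6.51 and 6.72 in PDGF-BB samples 1 and 4, with no other array above 5.31. Il15 read 6.05 and 6.14 in TGF-β2 samples 1 and 4 and 7.81 and 7.32 in PDGF-BB samples 1 and 4, with no other array above 5.62. Map3k12 and Olfr60 were each detected on 4 growth factor and 2 control arrays, again all on chip 1. Il15 was detected on the same arrays and on PDGF-BB sample 3 of chip 2. The cause of this pattern was not tested. Of the 10 higher genes, 8 had all 4 growth factor arrays of chip 1 above all 4 growth factor arrays of chip 2, and 6 differed from control by over 1 on chip 1. These are the arrays from which the 10 were picked. The same shares were not counted over all tested probes, so the numbers describe the 10 genes only. The growth factor arrays of chip 1 had between 294 and 564 detected probes, below both control arrays of that chip. In a fit with the number of detected probes as a covariate, added after the data were seen, Tdrd3 differed by 0.63, Map3k12 by 0.58, Il15 by 0.70 and Olfr60 by 0.61. With no scaling between arrays the differences of Map3k12, Il15, Olfr60 and Alox12b were -0.03, -0.13, -0.13 and -0.06.

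Alox12b, a lipoxygenase of the skin barrier, had the largest difference among the higher genes, 1.23 ± 0.57 (SE, limma unadjusted p = 0.0570). It was 7.39, 4.93, 4.75 and 6.84 with TGF-β2 and 9.77, 6.72, 4.85 and 8.14 with PDGF-BB, against 5.62, 5.76, 5.16 and 5.24 in control exosomes. The growth factor arrays reached both above and below all controls. The difference was 2.57 on chip 1 and -0.12 on chip 2.

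Ube2o, which joins ubiquitin-conjugating and ligase activity, was 5.73, 5.05, 5.13 and 5.54 with TGF-β2 and 6.30, 5.45, 5.25 and 5.62 with PDGF-BB, against 5.0, 5.16, 5.06 and 4.95 in control exosomes. In 6 of 8 growth factor arrays it was above every control, and the difference was 0.47 ± 0.17 (SE), at 0.69 on chip 1 and 0.25 on chip 2. Plekhm1, a lysosome fusion adaptor, differed by 0.59 ± 0.26, made up of 1.05 on chip 1 and 0.14 on chip 2. Susd2, a membrane protein, differed by 0.44 ± 0.20, Tdrd6, a protein of germ cell granules, by 0.38 ± 0.17, and Thnsl2, a threonine synthase-like enzyme, by 0.35 ± 0.17. Tdrd6 and Thnsl2 differed by 0.25 and 0.32 on chip 1 and by 0.51 and 0.38 on chip 2. Plekhm1, Tdrd6 and Thnsl2 were each detected on 3 growth factor arrays and 0 control arrays, so that they passed the filter on detection only through the group in which they were higher, and no fold is drawn from them.

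**Figure D3:**
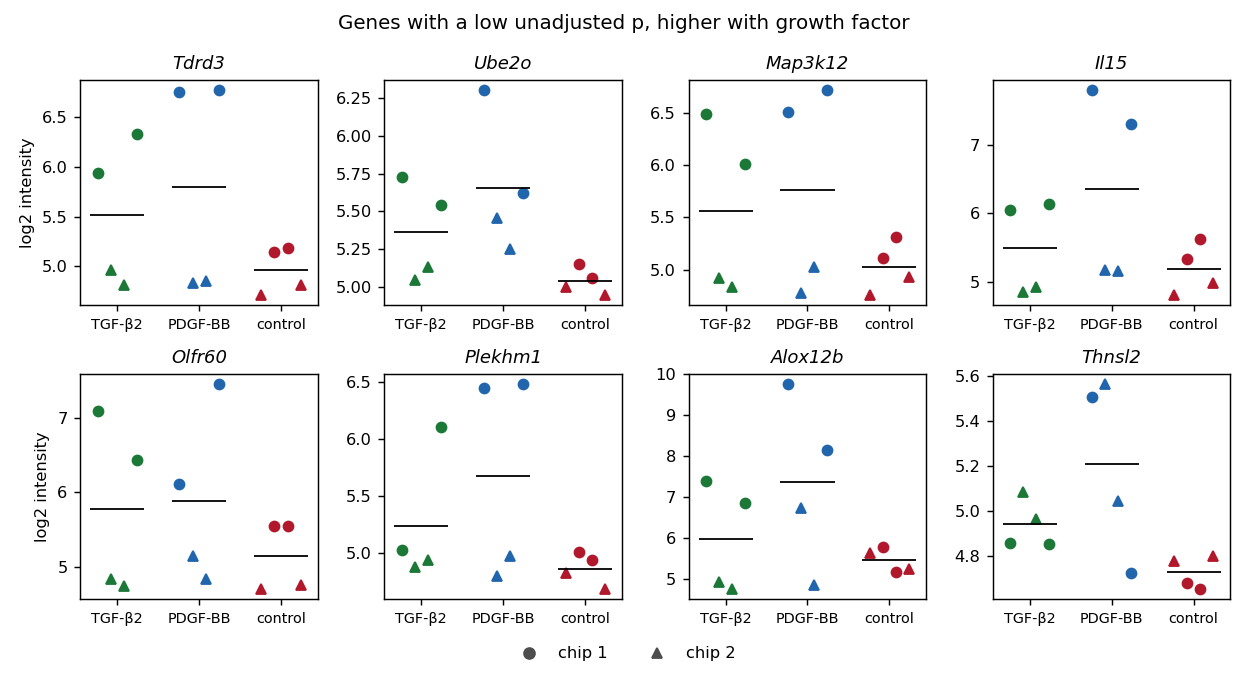
Log2 intensity of 8 of the 10 higher genes, on each array; each panel has its own axis, circles are chip 1, triangles are chip 2, and the line is the group mean (n = 4). In Tdrd3, Map3k12, Il15 and Olfr60 the 4 growth factor circles stand above all other points. The growth factor triangles lie near the control triangles and below the control circles.

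The pooled contrast averages 2 treatments that need not act alike. Tested alone, TGF-β2 exosomes differed from control at 0 probes after adjustment (6 higher and 3 lower at an unadjusted p under 0.05), and PDGF-BB exosomes at 0 (18 higher and 41 lower), by limma with the same 4 controls. TGF-β2 and PDGF-BB exosomes differed from each other at 0 probes after adjustment (smallest adjusted p = 0.764), with 51 higher and 15 lower in TGF-β2 at an unadjusted p under 0.05. The widest gap among the genes named was in Myocd, the myocardin coactivator of serum response factor. Myocd was 7.91, 7.74, 7.72 and 7.85 with TGF-β2 and 4.65, 5.15, 6.4 and 5.04 with PDGF-BB, against 5.08, 7.81, 8.05 and 7.18 in control exosomes. TGF-β2 and PDGF-BB arrays did not overlap, and control sample 1 lay with the PDGF-BB arrays. TGF-β2 minus PDGF-BB was 2.5 ± 0.59 (SE, unadjusted p = 0.00163, adjusted p = 0.764, limma), so its pooled difference of -0.47 ± 0.51 averaged 0.78 and -1.72. These values come from 1 probe, and the other Myocd probes were detected on 0 growth factor and 0 control arrays.

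**Figure D4:**
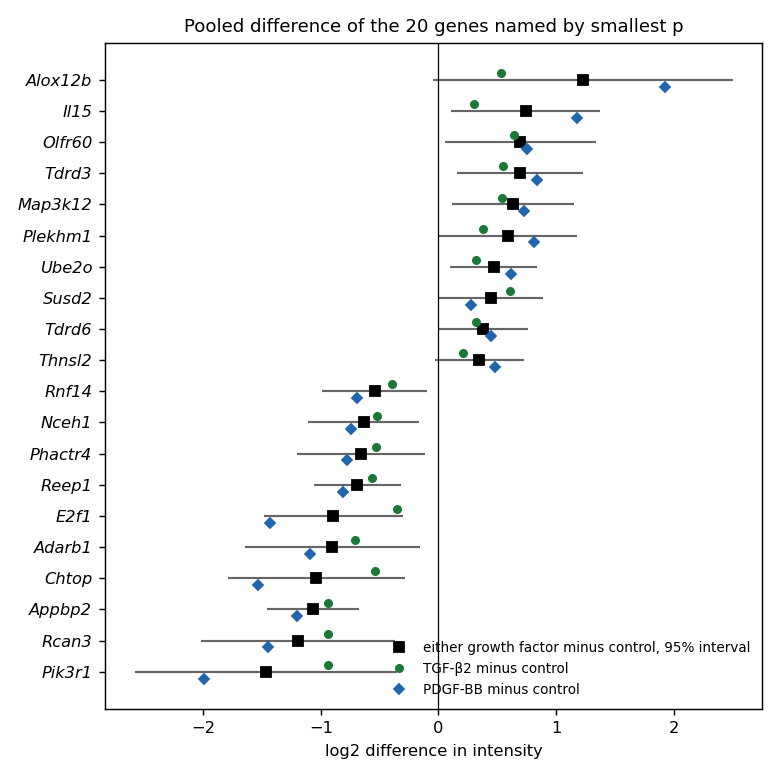
Pooled log2 difference (growth factor minus control) of the 20 genes named by smallest unadjusted p, 10 in each direction; squares are the pooled difference with its 95% interval from limma, circles the TGF-β2 and diamonds the PDGF-BB difference from the same controls. The interval of Appbp2 runs from -1.46 to -0.68, those of Alox12b, Susd2, Tdrd6 and Thnsl2 include 0, and no gene passed adjustment over 1099 probes.

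Few transcripts were present in every sample. On all 12 arrays 26 probes of 24 genes were detected. On all 8 growth factor arrays 29 probes were detected and on all 4 control arrays 92, numbers that rest on unequal numbers of arrays. Abcf1, an ATP-binding protein of translation initiation, was detected on 8 of 8 growth factor and 2 of 4 control arrays, and Dnajc5, a co-chaperone of vesicle release, on 8 of 8 and 3 of 4. At the other end, Reep1 and Narf, a nuclear protein that binds prelamin A, were detected on 2 of 8 growth factor and 4 of 4 control arrays. No probe was on 6 or more growth factor arrays and no control array. The most seen was 5 growth factor arrays with none of control, for Wdr13, a WD-repeat protein, and Gtf3c3, a subunit of the transcription factor of RNA polymerase III.

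Gene lists gave medians near that of all tested genes. Of 28 lists, 16 had at least 5 tested genes, and their median pooled log2 differences ran from -0.15 to 0.19, against 0.01 over all 962 named genes. Of those 962 genes 496 lay above 0, and 6 higher and 18 lower ones had an unadjusted p under 0.05. No member of any list passed adjustment. Some list members were detected on growth factor arrays and on 0 control arrays, so they passed the filter only through the growth factor group. In the other direction, 0 probes were detected on 3 or more control and on 0 growth factor arrays. Counts of genes above and below 0, here and below, include such members and are not read as a result about a list. In 12 of the 16 lists the median was below 0 on chip 1 and above 0 on chip 2, as it was over all 1099 probes (-0.14 and 0.14), with the chips and the sample numbers crossed as described for the detected probes.

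Cytosolic ribosomal proteins, the translation machinery and the most often detected list, had 48 of 62 genes tested. Their share detected per array was 54.6% ± 23.0 with growth factor (n = 8) and 59.7% ± 20.8 in control (SD, n = 4). The median difference was 0.00, with 25 genes above 0 and 23 below, made up of -0.95 on chip 1 and 0.89 on chip 2. It was -0.45 without control sample 1 and 0.19 without control sample 3, so its place near 0 rested on single arrays. Rps9, a small subunit protein, was the 1 member with an unadjusted p under 0.05, at -0.91 ± 0.39 (SE), and its other probe differed by 0.02 ± 0.45. Rpl39, of the large subunit, had the highest difference, 0.72 ± 0.94, from -0.79 on chip 1 and 2.23 on chip 2.

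Oxidative phosphorylation genes, which encode the respiratory chain and ATP synthase, had the highest list median. Of 27 tested genes 22 lay above 0 and 5 below, with a median of 0.19 and 0 members at an unadjusted p under 0.05 in either direction. The share of the list detected per array was 22% ± 20.7 with growth factor and 15.5% ± 10.5 in control (SD), a gap smaller than either spread. Cox5b, a subunit of cytochrome c oxidase, had the highest difference, 0.41 ± 0.27 (SE), and Cox4i1, another subunit of that enzyme, the lowest, -0.58 ± 0.64. Chip 1 gave a list median of -0.33 and chip 2 one of 0.63. Leaving out control sample 1 moved the pooled median to -0.0022. Glycolysis, TCA cycle and fatty acid oxidation genes were similar, with 6 of 6 tested genes above 0, a median of 0.13, chip medians of -0.38 and 0.79 and a pooled median of -0.016 without control sample 1. Atp5h and Ndufa6 of the first list and Fabp3 of the second were each detected on 3 growth factor and 0 control arrays. They passed the filter only through the group in which they were higher.

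Olfactory and vomeronasal receptors, which serve as a marker of background here, had 32 tested genes of 1197 with a median of 0.13, 22 above 0 and 10 below. Their detected share was 1.66% ± 0.54 with growth factor and 1.86% ± 0.84 in control (SD). The 8 hypertrophy and cardiac regulator genes had the lowest list median, -0.15, with 2 above 0 and 6 below and none at an unadjusted p under 0.05, Rcan3 being counted there by its other probe. That median was -0.64 on chip 1 and 0.25 on chip 2, and it was -0.36 without control sample 1 and 0.019 without control sample 2. The 8 tested genes of PDGF receptor and Ras-MAPK-PI3K signalling had a median of -0.05 (-0.30 without control sample 1 and 0.021 without control sample 2), and Pik3r1 and Nras were its 2 members with an unadjusted p under 0.05. Of 16 translation factors 9 were above 0 and 7 below, with a median of 0.05 (-0.043 without PDGF-BB sample 3). Among the 9, Eif3i, Eif3k and Eif3l were each detected on 3 growth factor and 0 control arrays. Eef1a2, the muscle and nerve form of elongation factor 1 alpha, was the member at an unadjusted p under 0.05, with -0.71 ± 0.30 (SE) and 7 of 8 growth factor arrays below every control, while its other probe differed by 0.00 ± 0.21.

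**Figure D5:**
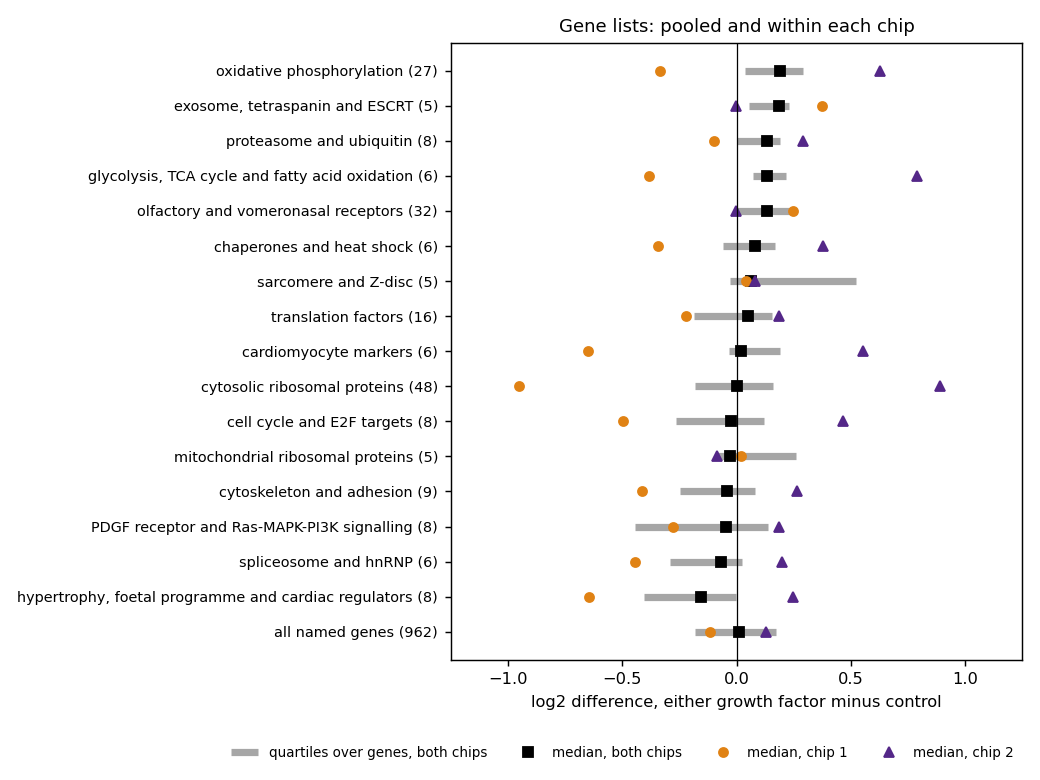
Median log2 difference (growth factor minus control) of each gene list with at least 5 tested genes, with the number of tested genes in brackets; squares are the pooled median, grey bars the quartiles over genes, circles the median on chip 1 and triangles on chip 2. All pooled medians lie between -0.15 and 0.19, and the ribosomal protein list runs from -0.95 on chip 1 to 0.89 on chip 2.

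Many genes of a fixed set tied to growth factor signalling and hypertrophy were not detected, as held for most genes on the array. Per array, 3.78% of all named genes were detected with growth factor and 3.96% in control. For PDGF receptor and Ras-MAPK-PI3K signalling the share was 13.1% and 14.0%, and for TGF-β target genes 8.33% and 8.33%. For TGF-β ligands, receptors and SMADs it was 5.29% and 7.69%. The receptor genes Tgfbr2, Pdgfra and Pdgfrb, the early response genes Fos, Jun and Myc, the TGF-β target Id1, the cyclin gene Ccnd1 and the hypertrophy markers Nppa, Nppb, Acta1 and Myh7 were detected on 0 of 12 arrays. Egr1, an early response transcription factor, and Hdac5, a histone deacetylase of hypertrophic signalling, were detected on 1 PDGF-BB array each. Klf10, a TGF-β-inducible transcription factor, was 5.05, 5.89, 5.85 and 7.24 with TGF-β2 and 10.1, 8.39, 6.07 and 7.34 with PDGF-BB, against 8.81, 4.75, 4.97 and 7.30 in control exosomes. Its groups overlapped, and its difference of 0.54 ± 0.90 (SE) was 2.58 on chip 1 and -1.51 on chip 2.

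Acta2, smooth muscle actin and a TGF-β target, was 7.67, 7.34, 7.24 and 8.11 with TGF-β2 and 4.93, 5.01, 7.53 and 7.0 with PDGF-BB, against 7.03, 7.41, 7.38 and 7.55 in control exosomes. PDGF-BB samples 1, 2 and 4 lay below all other arrays. The pooled difference was -0.49 ± 0.48 (SE), and a second probe differed by 0.04 ± 0.37. Further Acta2 probes were detected on 0 growth factor and 0 control arrays. Tgfbr1, the type I TGF-β receptor, and Nfat5, a transcription factor of the NFAT family, were each detected by 1 probe on 3 growth factor and 2 control arrays and differed by 0.08 ± 0.30 and 0.18 ± 0.36. The other Tgfbr1 probes were detected on 0 growth factor and 0 control arrays. Those of Nfat5 were detected on at most 1 growth factor array and 0 control arrays.

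The 10 brightest genes detected on all arrays were Rpl23, Rpl37, Irgm1, Rps20, Wsb2, Rpl38, Rps19, Lbh, Tuba1b and Eef1g. Most serve translation, while Irgm1 is an interferon-inducible GTPase, Lbh a transcription cofactor of heart and limb, and Tuba1b an alpha tubulin. Their pooled differences ran from -0.38 (Lbh, SE 0.40) to 0.31 (Wsb2, SE 0.35), each with overlapping groups. Rpl37 read between 11.3 and 11.6 in TGF-β2 samples and 9.08, 11.3, 11.6 and 11.6 with PDGF-BB, against 10.6, 11.1, 11.6 and 11.6 in control exosomes. Its low values were those of PDGF-BB sample 1 and control sample 1. Equal values recur because quantile normalization gives probes of equal rank the same value on each array.

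The labelled cell type was only partly visible. Of 14 cardiomyocyte markers, Myl4 (an atrial myosin light chain) and Atp2a2 (the pump that returns calcium to the sarcoplasmic reticulum) were each detected on 7 of 8 growth factor and 4 of 4 control arrays. Myh6, the alpha myosin heavy chain, was detected on 3 growth factor and 0 control arrays, and Ttn, titin, on 5 and 2. Actc1, Actn2, Gja5, Nppa, Pln, Ryr2, Sln and Tnni3 were at 0 arrays. The share of the markers detected was 25% ± 15.3 with growth factor (range 7.14% to 42.9%) and 26.8% ± 8.99 in control (range 14.3% to 35.7%). The 6 endothelial, 3 leucocyte and 2 erythroid markers measured were at 0 arrays, and of 9 fibroblast markers only Col3a1 and Dcn were detected, on at most 1 array per group. Of 5 smooth muscle markers Acta2 alone was detected, on 6 growth factor and 4 control arrays.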

How the data were processed

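RNA of 12 exosome samples was hybridised to Illumina MouseRef-8 arrays, 1 array each. The deposited intensity is an average over the beads of a probe, per the file headers, with background subtracted (values below 0 occur) and no normalization between arrays, and the deposited detection p-value ranks it among the negative control beads of its array. The software was GenomeStudio per the submitters' processing notes and Beadstudio per the study's methods. A value table holding intensity normalized by the authors with cubic splines served as an alternative. The deposited bead numbers entered no test. The log2 scale is not that of the deposited files and was computed here.

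Here negative controls were inferred from the detection p-values, and normexp background correction and quantile normalization with an offset of 16 gave log2 intensity (neqc, limma 3.58.1, R 4.3.3). Probes with a detection p under 0.01 on at least 3 arrays were fitted with 3 group means and the chip as a fixed term (lmFit, contrasts.fit, eBayes, two-sided, Benjamini-Hochberg adjustment over 1099 probes, threshold 0.05). Differences are growth factor minus control on the log2 scale. Detected probes per array were compared by exact permutation of labels within chips (Python 3.11.15). The fitting script was tested on simulated data. Arrays carry no counting error, and the number of arrays limits the precision: the median standard error was 0.28. Samples of a group came from separate flasks.

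Of 25696 probes, 23977 had 1 gene symbol in the platform annotation, 0 several and 1719 none, and 23961 matched the reference gene table by Entrez identifier. Tested probes without a name numbered 77. No coordinates or sequences were used. The samples, gene lists and tests were chosen with earlier results of these data known. Genes were named by rule: those past the threshold, or else the 10 with the smallest p in each direction (1 probe a gene); probes with no overlap between groups; probes detected on 6 or more growth factor and 0 control arrays, or on 4 control and at most 1 growth factor array (none); the 10 brightest on all arrays; list members with an unadjusted p under 0.05; and a fixed set of genes of growth factor signalling and hypertrophy. Members of that set without a value here were not analysed here. Probes named under presence were chosen after their values were seen. In a list, the tested probe with the highest mean intensity stood for each gene. Alternatives changed the block, the contrast, the background correction and normalization, the offset, the filter, the eBayes options and array weights, and each array was left out in turn. A fit with the number of detected probes as a covariate and the test of the difference between chips were added after the data were seen. Plots were drawn with matplotlib 3.10.9.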

Additional observations from a re-analysis of the deposited data

Results flagged for a closer look

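Of 84 groups of 4 arrays examined (values of named probes and of detected probes), 3 held an array whose gap to its nearest neighbour took up an unusual part of the range of its group, where about 4.2 would be met by chance. Plekhm1, the lysosome fusion adaptor, read 6.112 in TGF-β2 sample 4, far above the other 3 TGF-β2 arrays. Chtop, the mRNA export adaptor, read 6.889 in TGF-β2 sample 1, far below the other 3 TGF-β2 arrays. PDGF-BB sample 3 had 1070 detected probes, far above the other 3 PDGF-BB arrays.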

How the results depend on the processing

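Of 28 alternative settings, 26 gave 0 probes past an adjusted p of 0.05. Leaving out 1 array gave between 0 and 2 such probes: without control sample 1, G3bp1 (-1.13) and Adarb1 (-1.37) had an adjusted p of 0.0469, and without control sample 4, Appbp2 (-1.24) had one of 0.0368. The replicate block in place of the chip block gave 0 probes (unadjusted p under 0.05 for 2 higher and 29 lower probes). Deviations of same-numbered samples correlated between 0.23 and 0.39 for number 1 and between 0.37 and 0.43 for number 3. For numbers 2 and 4 they correlated between -0.23 and 0.18. Samples of different numbers ran from -0.50 to 0.47. Not every sample correlated best with its own number, and numbers were not taken to pair the samples. Whether numbers 1 and 3 mark a shared batch was not tested. The numbers of higher and lower probes at that unadjusted threshold, 7 and 22 of 1099, were 10 and 82 without control sample 1 and 1 and 14 without control sample 2. They were 0 and 7 with no scaling between arrays, 10 and 18 in the spline-normalized table and 4 and 10 after median scaling. With array weights they were 23 and 62, with the covariate 16 and 39, with trend and robust eBayes 2 and 20 and within chip 1 26 and 150. All of these settings tested the same 1099 probes. With no filter the numbers were 500 and 637, but out of 25696 probes tested, so they cannot be set beside the others. The difference in detected probes, -30.0, was 476.75 within chip 2 and ran from -143.6 to 107.2 when 1 array was left out. With no scaling between arrays Map3k12 was at -0.034, Il15 at -0.13, Olfr60 at -0.13 and Alox12b at -0.062. Alox12b was at -0.020 after median scaling and at -0.12 within chip 2. The cause was not tested. Over 59 named probes and list medians, 1545 recomputed values kept their direction and side of the threshold or moved by less than the spread. A further 47 moved by more and 2 crossed the threshold. Another 6 were counted as turned, those of Map3k12, Il15, Olfr60 and Alox12b given above. That count leaves out many other changes of sign. Klf10, at 0.54, was at -1.51 within chip 2, and Myocd, at -0.47, was at 0.62 there. In 12 of 16 lists the median was below 0 on chip 1 and above 0 on chip 2. Signal near background limits all of these: the median deposited intensity of an array was between 1.91 and 7.36, on arrays whose brightest probe reached 3763 or more.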

Other observations

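The naming rule did not reach 5 genes with a pooled difference over 1 in size, all lower with growth factor, and they are given here after their values were seen. Purb, a single-stranded nucleic acid binding repressor of muscle genes, averaged 6.76 with growth factor and 8.50 in control, the largest difference in size of all tested probes at -1.74 ± 0.81 (SE, limma unadjusted p = 0.0557, adjusted p = 0.9996). Prkacb, a catalytic subunit of protein kinase A, averaged 7.32 with growth factor and 8.70 in control (difference -1.37 ± 0.60). Cggbp1, a protein that binds CGG repeats, averaged 6.86 with growth factor and 7.88 in control (difference -1.02 ± 0.44, limma unadjusted p = 0.0421). Pptc7, a mitochondrial phosphatase, differed by -1.01 ± 0.62. Ptp4a2, a protein tyrosine phosphatase, differed by -1.05 ± 0.67, while its other tested probe, detected on 3 growth factor and 0 control arrays, differed by 0.25 ± 0.23. These probes, the second of Ptp4a2 aside, were each detected on 4 of 4 control arrays and on 6 or 7 of 8 growth factor arrays, and none passed adjustment.

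Chips held different sample numbers of each group, so the next values do not separate the chip from the sample number. The difference between growth factor and control exosomes itself differed between chips at 0 of 1099 probes after adjustment (limma, smallest adjusted p = 0.0894, for the second E2f2 probe) and at 198 with an unadjusted p under 0.05, of which 160 were higher on chip 2 and 38 higher on chip 1. The median change over all tested probes was 0.29 (chip 2 minus chip 1).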
